A study of Homo sapiens with 15 samples.

Results

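The nuclear receptor genes of HepG2 cells were followed across depletion of the SWI/SNF ATPases BRG1 (gene SMARCA4) and BRM (gene SMARCA2). The set is a list of 39 genes of the family, taken by symbol from the deposited count matrix with the HNF4 genes left out, and all 39 were among its 35012 gene symbols. Of the 39 receptors, 31 passed a filter on low counts and were tested together with the others among the 14621 genes that passed. HepG2 is an established human liver cancer cell line. The 15 RNA-seq libraries came from cells that received lentiviral shRNA. The control was a non-silencing shRNA (NS, 4 libraries), and the knockdowns targeted BRG1 (4 libraries), BRM (3 libraries) or both ATPases (the double knockdown, 4 libraries). All groups, NS included, were infected in the presence of polybrene, put under puromycin selection and collected on day 5 after transduction. Neither the shRNA sequences nor whether replicates were separate cultures is in the labels, so p-values measure the spread between these libraries, which may be technical.

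Nuclear receptors are transcription factors that carry a zinc finger DNA-binding domain and, in most members, a ligand-binding domain that changes shape when a small lipophilic molecule binds. Many sit on DNA as heterodimers with a retinoid X receptor (RXR), exchange corepressors for coactivators on ligand binding, and recruit chromatin remodellers of the SWI/SNF type. In liver cells they sense bile acids, oxysterols, fatty acids, drugs, retinoids, thyroid hormone and glucocorticoids, and set the transcription of bile acid, lipid, glucose and drug metabolism. A gene is said below to have risen or fallen, or to have been called, where edgeR's quasi-likelihood test gave a Benjamini-Hochberg adjusted p under 0.05 over all 14621 genes. Levels are CPM, each gene's counts scaled by its library's TMM-adjusted total, and changes are log2 differences of group means ± standard error (SE).

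Facts of the whole series that bear on these values were as follows. Total counts ran from 11500149 to 27187991 per library. The targeted transcripts were low where the labels say so: SMARCA4 changed by −3.46 ± 0.17 after BRG1 knockdown and in the double knockdown by −2.73 ± 0.17, and SMARCA2 by −3.18 ± 0.28 after BRM knockdown and −3.93 ± 0.26 in the double. SMARCA2 was also below every NS library in all BRG1 libraries (25.8 against 39.2 CPM on average), a difference of −0.61 ± 0.23 that did not pass (adjusted p = 0.0712). The authors' deposited table for BRG1, from the same libraries, gives SMARCA2 −0.64 with an adjusted p of 0.0219, under the threshold used here. The double knockdown kept more SMARCA4 than the BRG1 knockdown (difference 0.73 ± 0.16, adjusted p = 0.00858). In each of the 4 groups, libraries 1 and 2 differed from libraries 3 and 4: mitochondrially encoded transcripts took 4.97 to 8.33% of counts in the former and 1.33 to 3.55% in the latter, and 20 of the 31 tested receptors differed between these sets of libraries, as did 55.6% of all tested genes. What libraries with a like number share is not in the labels. Changes within the sets are given below as "by set", libraries 1 and 2 before libraries 3 and 4, which hold 1 BRM library. All 8 hepatocyte markers were detected in every library, from TTR at 10.2 CPM or more to APOB and SERPINA1 at 1392 and 2494 CPM or more. Their summed level, carried mostly by ALB, AFP, APOB and SERPINA1, moved with the groups: 24561 to 38591 CPM with NS, 7030 to 21704 with BRG1 knockdown, 47845 to 52140 with BRM knockdown and 13107 to 27853 in the double knockdown. Single markers differed from the sum: mean KRT18 was 1387, 2581, 765 and 2149.8 CPM with NS, BRG1, BRM and double knockdown, and mean TTR 116, 43.4, 39.3 and 14.6 CPM. The summed level of 5 cholangiocyte markers was mostly the keratin KRT19. In the same order the sum ran from 1023 to 1505, 2879 to 5016, 515 to 1028 and 1295 to 2776 CPM. Other members differed from the sum: mean KRT7 was 4.08, 5.89, 1.37 and 0.484 CPM and mean SOX9 194, 208, 105 and 123 CPM. Mean EPCAM was 110, 90.4, 103 and 109 CPM, and CFTR was at or under 0.0971 CPM. Of 7 blood and endothelial markers CD3E was at 0 and the sum did not exceed 19.0 CPM, and 6 stromal markers summed to at most 245 CPM, mostly COL1A1, with LUM at or under 0.0491 CPM. The part of these shifts in the receptor values was not tested, and fewer cells of a type cannot be told apart from less RNA per cell in such bulk samples.

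In control cells the receptor transcripts differed widely in level per kilobase of annotated exon, the scale used here to compare genes. NR0B2 (SHP, an atypical member without a DNA-binding domain that represses other receptors) stood highest at 70.5 ± 35.3 CPM per kb (mean ± SD, n = 4), but its libraries ran from 36.1 to 103. NR2F6, a COUP-TF family orphan receptor, followed at 43.2 ± 5.59 CPM per kb, and the ranges of these top members overlapped. NR2F6 shares 221 exonic bases with the protein-coding AC010646.1 on the same strand, and reads of that stretch may be divided between both genes. The next group, RXRB at 12.02 ± 2.77, NR1H4 (the bile acid receptor FXR) at 11.9 ± 1.7, NR6A1 at 11.6 ± 3.43 and ESRRA at 10.8 ± 2.23 CPM per kb, had overlapping ranges and no order can be read among them. PPARA, PPARG and NR2C2 lay close together (2.98 ± 0.781, 2.88 ± 0.553 and 2.6 ± 0.38), again with overlapping ranges. The lowest tested members were NR5A2 at 0.132 ± 0.032, NR4A2 at 0.102 ± 0.0822, VDR at 0.0969 ± 0.0334 and NR4A3 at 0.0329 ± 0.0277 CPM per kb. Exonic length was taken over all annotated transcripts, so a gene that uses a short isoform is understated on this scale.

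**Figure D1:**
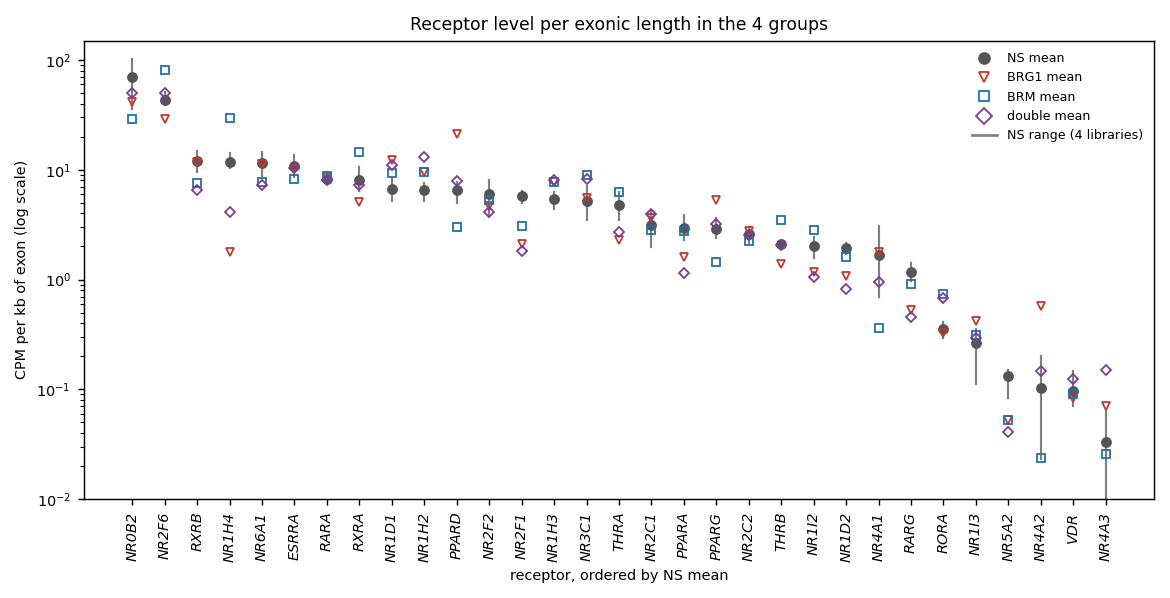
Mean level of the 31 tested receptors per kilobase of annotated exon (CPM per kb, log axis) in each group, ordered by the NS mean, with a grey line for the range of the 4 NS libraries. NR0B2 and NR2F6 stand at the top with NS means of 70.5 and 43.2 CPM per kb, and the NS line of NR4A3 runs off the axis because NS library 3 held 0 counts.

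Of the 39 receptors, 8 did not pass the filter and carry no test. PGR, the progesterone receptor, had 0 counts in all 15 libraries, which allows at most 0.0104 CPM over their 288092874 counts together (3 counts, counting error only). RXRG had 2 counts in all, NR2E3 5, the estrogen receptor ESR1 18, RORB 34, RARB 56, the mineralocorticoid receptor NR3C2 69 and ESRRG 73. None of these exceeded 0.738 CPM in a library, and no change was tested at this depth. NR3C2 was at 0.0789, 0.0517, 0.0435 and 0.197 CPM in the BRG1 libraries, all below the NS libraries at 0.243, 0.24, 0.277 and 0.325 CPM, and the authors' deposited table gives it −1.61 (adjusted p = 0.115).

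The main question was which receptor transcripts change when either ATPase or both are depleted. After BRG1 knockdown 3 of the 31 tested receptors rose and 9 fell, against a background of 12.5% of all tested genes higher and 9.97% lower. As shares, 9.68% of tested receptors were higher and 29% lower. After BRM knockdown 3 rose and 4 fell (9.68 and 12.9%), where 7.66% of all genes were higher and 6.26% lower. In the double knockdown 2 rose and 10 fell (6.45 and 32.3%), beside 11.8% and 9.9% of all genes. Same-numbered libraries deviated from their group means together for NS with BRG1 and for NS with the double. These deviations include the difference between libraries 1 and 2 and libraries 3 and 4. With the replicate number as a block, 6 receptors were higher and 12 lower after BRG1 knockdown (19.5 and 16.8% of all genes), and 6 higher and 11 lower in the double (19.3 and 16.3% of all genes). The median change over the tested receptors was −0.08, −0.15 and −0.05 on the log2 scale in the 3 comparisons and 0.02, 0.03 and 0.02 over all genes, while the median size of a change regardless of sign was 0.64, 0.57 and 0.66 for receptors and 0.40, 0.38 and 0.41 for all genes. Groups that did not overlap in any library were counted as well: 4 receptors were above and 8 below every NS library after BRG1 knockdown (15.4 and 13.1% of all tested genes), 5 and 6 after BRM knockdown (12.5 and 10.8% of all genes), and 4 and 8 in the double (14.5 and 12.8% of all genes). In all, 17 receptors were called against NS in at least 1 knockdown and 14 in none. The share of all genes called in at least 1 knockdown was not computed, so these 2 counts have no background.

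Of the receptors called after both BRG1 and BRM knockdown, NR1H4 and THRB fell after BRG1 knockdown and rose after BRM knockdown, and PPARD and PPARG rose after BRG1 knockdown and fell after BRM knockdown. NR2F1 fell in both. These comparisons share their NS libraries, and the values stand side by side only. How often all tested genes called in both comparisons had opposite signs was not counted, so opposite signs cannot be read as particular to receptors. In the double knockdown, NR1H4 and NR2F1 were lower than NS, whereas PPARD, PPARG and THRB stood at 0.27 ± 0.20, 0.17 ± 0.20 and −0.06 ± 0.15 and were not called.

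**Figure D2:**
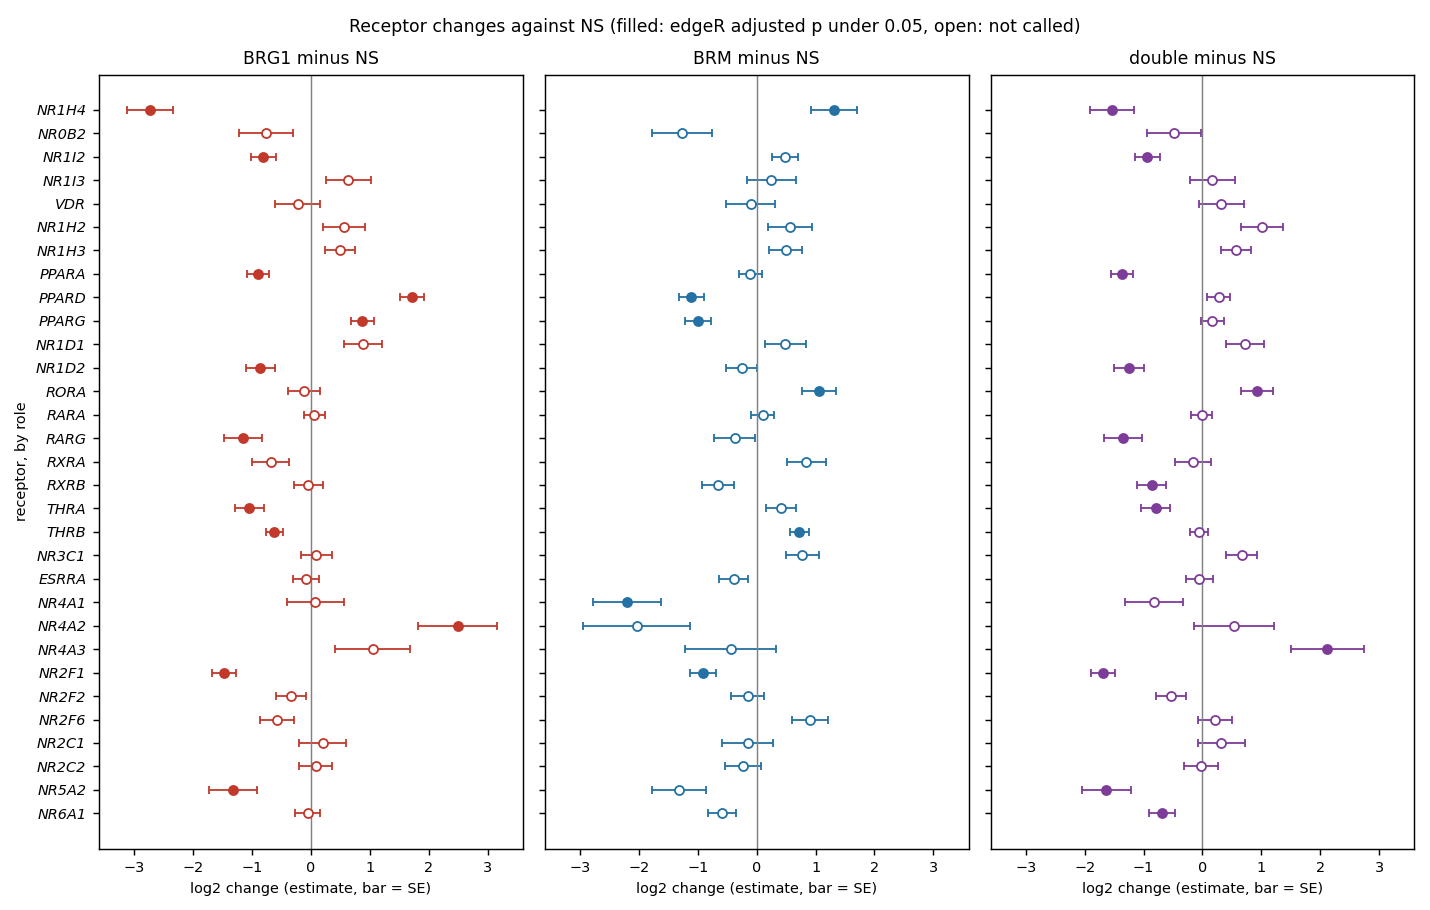
Log2 change of each tested receptor against NS with its SE, in 3 panels for the BRG1, BRM and double knockdowns, ordered by role (filled points have an edgeR adjusted p under 0.05). NR1H4 stands at −2.73, 1.31 and −1.53 in the 3 panels and PPARD at 1.71, −1.11 and 0.27.

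The upstream sequences of 4 of these 5 receptors are printed here because their transcripts were called in both single knockdowns. Each is the 250 bases before a RefSeq start on GRCh38.p14, 5′ to 3′ on the gene's strand, chosen outside the gene's own annotated exons, with matches to searched motifs in capitals. No such window was found for THRB. RefSeq windows were found for 35 of the 39 receptors.
NR1H4 chr12:100503110-100503359 (plus strand): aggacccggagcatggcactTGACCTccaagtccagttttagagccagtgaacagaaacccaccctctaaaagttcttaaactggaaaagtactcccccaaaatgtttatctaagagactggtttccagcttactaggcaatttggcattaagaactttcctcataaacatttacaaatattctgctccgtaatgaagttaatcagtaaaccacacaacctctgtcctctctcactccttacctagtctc
PPARD chr6:35342308-35342557 (plus strand): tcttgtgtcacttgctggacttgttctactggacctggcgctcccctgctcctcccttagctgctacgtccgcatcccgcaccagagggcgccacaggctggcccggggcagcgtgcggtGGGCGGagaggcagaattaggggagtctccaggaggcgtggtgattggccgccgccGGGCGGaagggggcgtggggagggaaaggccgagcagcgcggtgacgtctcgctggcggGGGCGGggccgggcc
PPARG chr3:12287118-12287367 (plus strand): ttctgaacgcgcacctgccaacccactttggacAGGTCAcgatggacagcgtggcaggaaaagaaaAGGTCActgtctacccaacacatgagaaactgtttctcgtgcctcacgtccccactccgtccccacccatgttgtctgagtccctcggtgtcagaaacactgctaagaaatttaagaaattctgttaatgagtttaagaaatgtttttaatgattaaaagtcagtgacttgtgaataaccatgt
NR2F1 chr5:93582972-93583221 (plus strand): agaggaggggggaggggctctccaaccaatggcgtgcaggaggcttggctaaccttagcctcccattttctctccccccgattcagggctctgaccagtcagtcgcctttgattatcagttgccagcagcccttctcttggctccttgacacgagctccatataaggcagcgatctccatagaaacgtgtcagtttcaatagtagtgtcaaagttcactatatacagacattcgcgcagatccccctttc
The motifs were the receptor hexamer AGGTCA, the AP-1 site TGANTCA, the cyclic AMP response element TGACGTCA, the E-box CACGTG and the GC box GGGCGG, on either strand, none of which holds another. The NR1H4 window held 1 AGGTCA match, on the opposite strand 230 bases before the start, and the PPARG window 2, at 217 and 184 bases. The PPARD window held 3 GC boxes and the NR2F1 window no match to any of the 5. AGGTCA was present in 12.1% of all 35116 RefSeq windows of this length and in 13.4% of the 82 windows of receptor genes, and GGGCGG in 42.6 and 48.8%. The NR1H4 window belongs to a start inside the annotated gene, and the start used in these cells is not known from the counts. These letters describe the windows only.

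Among the bile acid and xenobiotic sensors, NR1H4 (a protein-coding gene, GRCh38 chromosome 12, 100473708 to 100564413, plus strand) was called in all 3 comparisons with NS. It encodes FXR, the receptor through which bile acids lower their own synthesis. Its level was 37.3, 39.8, 51.4 and 43.8 CPM in NS libraries 1 to 4 and 3.63, 2.69, 9.14 and 10.4 CPM in BRG1 libraries 1 to 4. It was 129.9, 111 and 79.2 CPM in the 3 BRM libraries and 18.4, 18.9, 8.78 and 13.6 CPM in the double libraries. Every BRG1 and every double library was below every NS library, and every BRM library was above them. NR1H4 fell by 2.73 ± 0.39 after BRG1 knockdown (by edgeR's test, adjusted p = 0.000213, −3.59 and −2.32 by set), a 6.65-fold decrease. It rose by 1.31 ± 0.39 after BRM knockdown (adjusted p = 0.0365, 1.65 and 0.65 by set) and fell by 1.53 ± 0.37 in the double knockdown (adjusted p = 0.0087, −1.05 and −2.15 by set). The rise after BRM knockdown did not pass without any of 9 single libraries: NS 1 to 4 (adjusted p = 0.0864, 0.0968, 0.0548 and 0.0758), BRM 1 or 2 (0.0959 and 0.135) or double 1, 2 or 4 (0.0561, 0.0542 and 0.0556), nor with no low-count filter (0.0671).

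The double knockdown and the BRG1 knockdown differed in NR1H4 by 2.55 and 0.17 by set and 1.201 ± 0.38 over all libraries (adjusted p = 0.0545). NR0B2, which FXR induces and which in turn represses bile acid synthesis, did not pass in any comparison with NS. Its libraries held 41.7, 51.2, 119 and 115 CPM with NS, 22.1, 21.04, 68.8 and 80.9 after BRG1 knockdown, 21.8, 31.3 and 48.5 after BRM knockdown and 53.8, 57.2, 45.6 and 77.4 in the double knockdown. In the NS and BRG1 groups the high-numbered libraries held the higher values, and the groups overlap. Its differences from NS were −0.76 ± 0.46, −1.26 ± 0.51 and −0.48 ± 0.46 after BRG1, BRM and double knockdown (adjusted p = 0.271, 0.122 and 0.513). With the replicate number as a block in a fit of all 15 libraries, NR0B2 was lower after BRG1 knockdown (−0.83, adjusted p = 0.0348). Within each set it was also lower after BRM knockdown (−0.80 and −1.35 by set, adjusted p = 0.0139 and 0.0168, with 1 BRM library in the latter).

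NR1I2 (GRCh38 chromosome 3, 119780484 to 119818485, plus strand) encodes PXR, the drug sensor that induces CYP3A enzymes. It held 12.96, 13.1, 8.39 and 9.39 CPM in the NS libraries, 6.47, 8.48, 5.35 and 4.82 in the BRG1 libraries, 16.04, 16.4 and 13.6 in the BRM libraries and 5.74, 6.07, 5.83 and 5.26 in the double libraries. The double libraries were all below the NS libraries, and BRG1 library 2 was above NS library 3. NR1I2 fell by 0.81 ± 0.21 after BRG1 knockdown (adjusted p = 0.0115, −0.81 and −0.85 by set) and in the double knockdown by 0.94 ± 0.21 (adjusted p = 0.00501, −1.14 and −0.73 by set). After BRM knockdown its 3 libraries were above all NS libraries, but the difference of 0.48 ± 0.22 did not pass (adjusted p = 0.171). NR1I3 (CAR, the related xenobiotic receptor) and VDR (the vitamin D receptor) were at or under 1.62 CPM in every library and were not called. After BRG1, BRM and double knockdown the log2 differences from NS of NR1I3 were 0.64 ± 0.38, 0.25 ± 0.42 and 0.17 ± 0.38 and those of VDR −0.23 ± 0.38, −0.10 ± 0.42 and 0.32 ± 0.38. NR1I3 shares 661 exonic bases with TOMM40L on the opposite strand, and the strand setting of the counts is not known.

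Known targets of these sensors were counted from lists chosen with earlier results of these data known. These and the later lists share genes, among them SULT2A1 (FXR, and PXR and CAR), PLTP (FXR and liver X receptor) and ANGPTL4 (PPAR and glucocorticoid receptor). A shared gene is counted in each of its lists. The lists do not separate genes that a receptor induces from genes that it represses. The FXR list also holds CYP8B1, a gene of the bile acid synthesis that FXR lowers. A signed count or median is therefore no measure of receptor activity. Of 12 tested FXR targets, 6 fell and 1 rose after BRG1 knockdown (median −1.001), 5 rose and none fell after BRM knockdown (median 0.82), and 5 fell and 2 rose in the double knockdown (median −0.86). After BRG1 knockdown the smallest adjusted p-values belonged to the sulfotransferase SULT2A1 at −2.38 ± 0.40, the phospholipid exporter ABCB4 at −0.98 ± 0.19 and the bile acid hydroxylase CYP8B1 at −2.02 ± 0.41. After BRM knockdown they were FETUB at 2.94 ± 0.34, the bile acid exporter subunit SLC51A at 2.27 ± 0.32 and kininogen KNG1 at 3.08 ± 0.48. In the double knockdown ABCB4 stood at −1.52 ± 0.19, FETUB at −1.73 ± 0.34 and APOC2 at −1.42 ± 0.28. Of 13 tested PXR and CAR targets, 5 fell and none rose after BRG1 knockdown (median −0.78), 4 rose and none fell after BRM knockdown (median 0.79), and 6 fell and none rose in the double (median −0.92). CYP3A7, the fetal-type CYP3A enzyme, fell by 2.78 ± 0.34 after BRG1 knockdown and by 3.46 ± 0.36 in the double. The glutathione transferase GSTA1 fell by 3.88 ± 0.45 after BRG1 knockdown and rose by 4.20 ± 0.45 after BRM knockdown, and has close paralogs between which reads may be divided. With the replicate block 9 of the 13 fell and 1 rose after BRG1 knockdown. The medians over all tested genes were 0.02, 0.03 and 0.02. Beside these and the later lists stand the shares of all tested genes called higher and lower. They were 12.5 and 9.97% after BRG1 knockdown, 7.66 and 6.26% after BRM knockdown and 11.8 and 9.9% in the double. With the replicate block they were 19.5 and 16.8% after BRG1 knockdown and 19.3 and 16.3% in the double. The summed hepatocyte markers were below every NS library in all BRG1 libraries, above them in all BRM libraries and overlapped them in the double, and their part in these counts was not tested.

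The PPAR receptors, which bind fatty acids and their derivatives, did not share a direction: after BRG1 knockdown PPARA fell while PPARD and PPARG rose. PPARA (GRCh38 chromosome 22, 46150521 to 46243756, plus strand), the driver of hepatic fatty acid oxidation, held 31.1, 30.6, 51.7 and 44.1 CPM in the NS libraries, 16.9, 23.4, 20.3 and 23.5 in the BRG1 libraries and 15.8, 15.1, 12.7 and 17.4 in the double libraries. Both knockdown groups lay wholly below NS. The 3 BRM libraries held 33.3, 41.3 and 35.1 CPM, within the NS range. PPARA fell by 0.90 ± 0.19 after BRG1 knockdown (adjusted p = 0.00324, −0.62 and −1.17 by set) and in the double knockdown by 1.37 ± 0.19 (adjusted p = 0.000178, −0.996 and −1.72 by set), and its difference after BRM knockdown was −0.11 ± 0.20 (adjusted p = 0.803).

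PPARD (GRCh38 chromosome 6, 35342558 to 35428191, plus strand), the widely expressed subtype, held 24.4, 22.4, 34.2 and 34.6 CPM with NS and 83.2, 80.1, 109 and 107 CPM after BRG1 knockdown. It held 15.1, 9.6 and 15.6 CPM after BRM knockdown and 37.7, 30.96, 31.9 and 39.2 CPM in the double knockdown. The BRG1 libraries were all above and the BRM libraries all below the NS libraries, while the double libraries overlapped NS. PPARD rose by 1.71 ± 0.20 (3.28-fold) after BRG1 knockdown (adjusted p = 4.32e-05, 1.80 and 1.61 by set) and fell by 1.11 ± 0.22 after BRM knockdown (adjusted p = 0.00402, −0.94 and −1.23 by set). PPARG (GRCh38 chromosome 3, 12287368 to 12434356, plus strand), the adipogenic subtype, held 12.9, 10.8, 11.9 and 16.6 CPM with NS, 25.9, 19.7, 24.8 and 25.6 after BRG1 knockdown, 4.84, 7.95 and 6.73 after BRM knockdown and 16.7, 17.1, 11.6 and 13.3 in the double. It had the same order of groups as PPARD, with BRG1 libraries above and BRM libraries below every NS library. PPARG rose by 0.88 ± 0.20 after BRG1 knockdown (adjusted p = 0.00514, 0.94 and 0.77 by set) and fell by 1.001 ± 0.22 after BRM knockdown (adjusted p = 0.00774, −0.88 and −1.18 by set). None of these PPARD and PPARG calls was lost when any 1 library was left out.

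The liver X receptors NR1H2 and NR1H3, which sense oxysterols, were not called in any comparison with NS. NR1H2 held 21.8, 19.5, 27.95 and 28.3 CPM with NS and 32.7, 27.4, 67.4 and 69.7 CPM in the double knockdown, with the higher values in libraries 3 and 4 of both groups. Its differences from NS were 0.56 ± 0.36, 0.57 ± 0.38 and 1.02 ± 0.36 after BRG1, BRM and double knockdown (adjusted p = 0.295, 0.376 and 0.0556). NR1H3, whose exons overlap those of ACP2 on the opposite strand, differed from NS without a call by 0.49 ± 0.26, 0.49 ± 0.28 and 0.57 ± 0.26, and in the double knockdown its libraries (29.7, 30.02, 36.03 and 51.4 CPM) were all above those of NS (19.9, 22.7, 28.3 and 28.3 CPM). Under the replicate block both were higher after BRG1 knockdown (NR1H2 0.51, adjusted p = 0.0486, NR1H3 0.47, adjusted p = 0.0172) and in the double knockdown (NR1H2 0.92, adjusted p = 0.00199, NR1H3 0.55, adjusted p = 0.00722).

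Of 14 tested PPAR targets, 1 fell and 2 rose after BRG1 knockdown (median −0.18, and 4 fell with the replicate block). After BRM knockdown 8 rose and 2 fell (median 0.87), and in the double knockdown 3 rose and 2 fell (median 0.03). EHHADH, a peroxisomal oxidation enzyme, fell by 1.23 ± 0.16 after BRG1 knockdown, and ANGPTL4, which inhibits lipoprotein lipase, rose by 2.58 ± 0.35, 2.92 ± 0.37 and 4.56 ± 0.37 after BRG1, BRM and double knockdown. After BRM knockdown the carnitine carrier SLC25A20 rose by 2.90 ± 0.27 and CPT1A, the entry enzyme of mitochondrial fatty acid oxidation, by 1.64 ± 0.23. Of 13 tested LXR targets, 2, 3 and 3 rose after BRG1, BRM and double knockdown and none fell. Their medians, on the other side of 0 from the calls in the BRG1 and double comparisons, were −0.22, 0.50 and −0.15. APOE rose by 1.53 ± 0.24 after BRM knockdown and by 1.02 ± 0.23 in the double, and the phospholipid transfer protein PLTP by 1.76 ± 0.33 and 1.10 ± 0.30. Blocked by replicate number, 4 LXR targets fell after BRG1 knockdown and 3 in the double, beside 2 and 4 that rose.

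**Figure D3:**
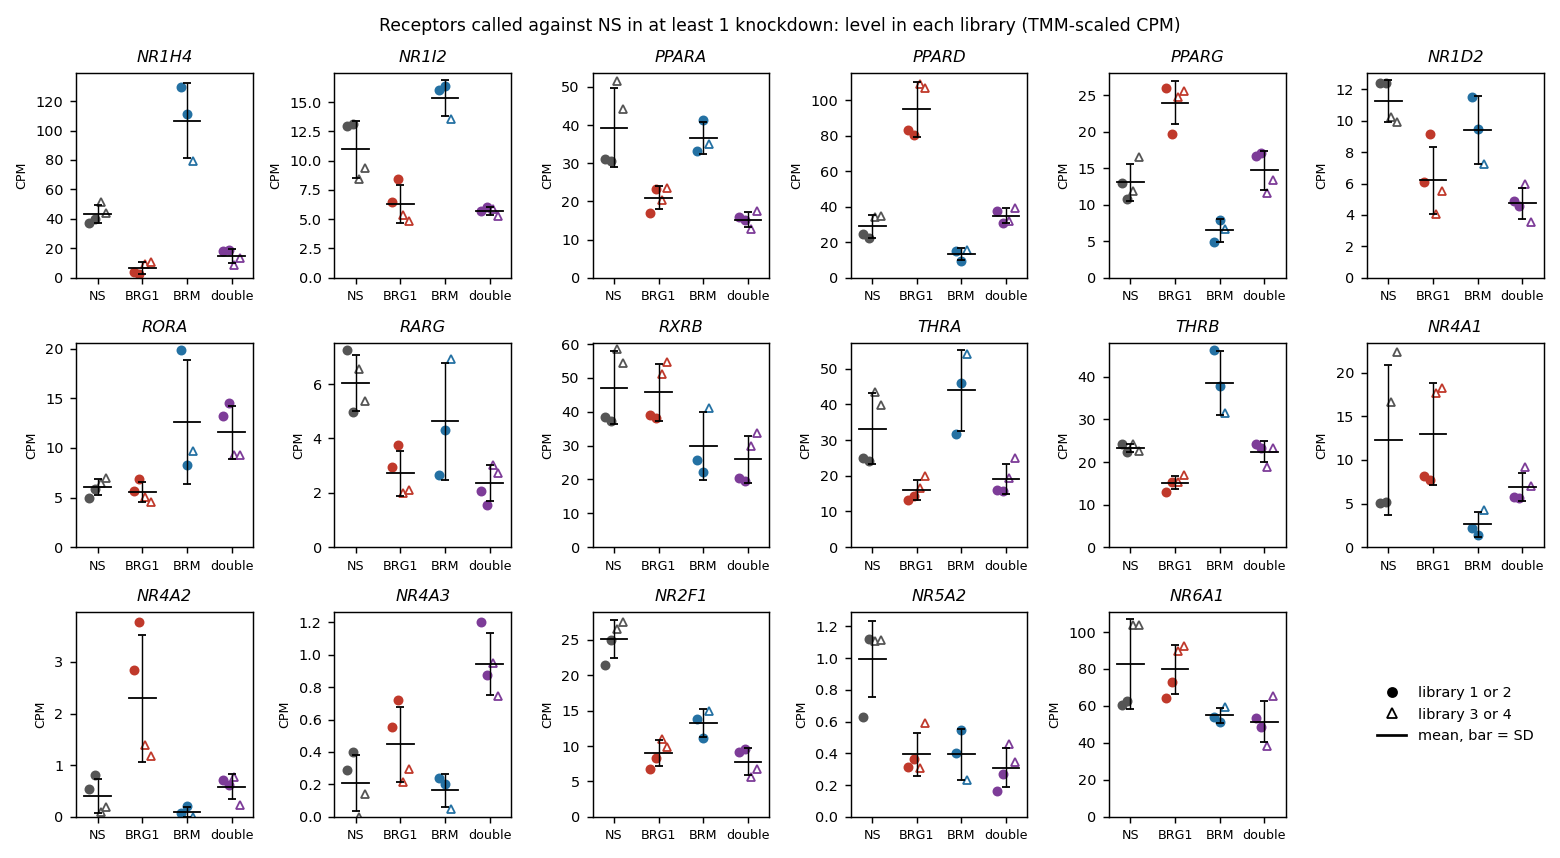
Level in each library (TMM-scaled CPM, linear axis from 0) of the 17 receptors called against NS in at least 1 knockdown, with filled circles for libraries 1 and 2, open triangles for libraries 3 and 4, and the group mean with its SD. PPARD and PPARG are highest in the BRG1 group and lowest in the BRM group, and NR1H4 and THRB the reverse.

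In the circadian group, the REV-ERB receptors NR1D1 and NR1D2 repress, and the ROR receptors activate, the same response elements in clock genes. NR1D2 (GRCh38 chromosome 3, 23945260 to 23980618, plus strand) held 12.4, 12.4, 10.2 and 9.95 CPM with NS, 6.07, 9.15, 4.05 and 5.55 after BRG1 knockdown, 11.5, 9.5 and 7.24 after BRM knockdown and 4.86, 4.59, 5.97 and 3.55 in the double knockdown. All BRG1 and double libraries were below the NS libraries. NR1D2 fell by 0.86 ± 0.25 after BRG1 knockdown (adjusted p = 0.0229, −0.71 and −1.11 by set) and by 1.24 ± 0.25 in the double (adjusted p = 0.00288, −1.39 and −1.12 by set). The BRG1 call was lost without NS library 1 or BRG1 library 3 (adjusted p = 0.0576 and 0.0616). For its paralog NR1D1, all BRG1 libraries (25.7, 23.4, 44.5 and 43.4 CPM) were above all NS libraries (17.4, 14.5, 18.9 and 23.1 CPM), though the difference of 0.89 ± 0.33 did not pass (adjusted p = 0.0659). In the fit with the replicate block, NR1D1 was higher after BRG1 knockdown (0.83, adjusted p = 0.0016) and in the double knockdown (0.66, adjusted p = 0.00698). NR1D1 shares 263 exonic bases with the thyroid hormone receptor gene THRA on the opposite strand, so reads from that overlap cannot be assigned without strand.

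RORA (GRCh38 chromosome 15, 60488284 to 61229319, minus strand) held 5.00, 5.85, 6.46 and 6.92 CPM with NS, 5.68, 6.88, 5.09 and 4.57 after BRG1 knockdown, 19.8, 8.3 and 9.73 after BRM knockdown and 13.2, 14.5, 9.27 and 9.33 in the double. BRM library 1 stood far above the other BRM libraries, and all BRM and double libraries were above NS. RORA rose by 1.05 ± 0.29 after BRM knockdown (adjusted p = 0.0258, 1.36 and 0.45 by set) and by 0.93 ± 0.27 in the double (adjusted p = 0.0232, 1.36 and 0.42 by set). The BRM call was lost without BRM library 1 (log2 change 0.58, adjusted p = 0.139) or NS library 1 or 2 (0.0692 and 0.0644), with limma voom (0.0551) and with 2 groups in the fit (0.117). The double call was lost without NS library 1 or 2 (0.0683 and 0.0607) or double library 1 or 2 (0.079 and 0.091). Of 14 tested clock genes, 3 fell and 1 rose after BRG1 knockdown, 2 rose and 2 fell after BRM knockdown, and 3 rose and 2 fell in the double (medians −0.14, 0.40 and −0.02). The activator ARNTL (BMAL1), a REV-ERB target, rose by 1.43 ± 0.30 after BRG1 knockdown and by 1.22 ± 0.30 in the double, while the output factor HLF changed by −2.21 ± 0.26 and −1.59 ± 0.25. CLOCK fell by 1.22 ± 0.25 after BRG1 knockdown, and NPAS2, its paralog, changed by −1.43 ± 0.20 after BRM knockdown and −0.91 ± 0.18 in the double. Fitted with the replicate block, 5 clock genes rose and 5 fell after BRG1 knockdown, and 4 and 4 did in the double.

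Among the retinoid receptors, RARG (GRCh38 chromosome 12, 53210567 to 53232980, minus strand) fell and RARA was not called. RARG held 7.23, 4.97, 6.55 and 5.39 CPM with NS, 2.96, 3.77, 2.001 and 2.11 after BRG1 knockdown, 2.66, 4.3 and 6.92 after BRM knockdown and 2.08, 1.55, 3.02 and 2.75 in the double. BRG1 and double libraries were all below NS, and the BRM libraries overlapped it. RARG fell by 1.15 ± 0.32 after BRG1 knockdown (adjusted p = 0.018, −0.87 and −1.57 by set) and by 1.35 ± 0.32 in the double (adjusted p = 0.00803, −1.75 and −1.09 by set), and the BRG1 call was lost without NS library 1 or BRG1 library 3 (0.0508 and 0.0509). RARA, the main retinoic acid receptor here by level per length, had log2 differences from NS of 0.06 ± 0.18, 0.10 ± 0.19 and −0.01 ± 0.18 after BRG1, BRM and double knockdown (adjusted p = 0.869, 0.804 and 0.979).

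The RXRs are the common heterodimer partners of FXR, PXR, LXR, PPAR, RAR, and the thyroid hormone and vitamin D receptors. RXRB (GRCh38 chromosome 6, 33193588 to 33200688, minus strand) held 38.3, 37.3, 58.4 and 54.4 CPM with NS, 38.97, 38.2, 51.1 and 54.8 after BRG1 knockdown, 25.9, 22.3 and 41.2 after BRM knockdown and 20.4, 19.6, 29.99 and 33.6 in the double. The double libraries were all below NS, and the BRG1 and BRM libraries overlapped NS. RXRB fell by 0.86 ± 0.25 in the double knockdown (adjusted p = 0.0213, −0.92 and −0.88 by set), a call lost without NS library 3 or 4 or double library 1 (0.0674, 0.0576 and 0.0504), and its differences after BRG1 and BRM knockdown were −0.04 ± 0.24 and −0.66 ± 0.27. It shares 244 exonic bases with SLC39A7 on the opposite strand. RXRA held 75.4, 70.6, 118 and 96.4 CPM with NS, 36.3, 39.9, 74 and 74.6 after BRG1 knockdown, 107, 149.6 and 227 after BRM knockdown and 61.9, 60.6, 80.3 and 119.7 in the double, and its differences from NS of −0.68 ± 0.31, 0.84 ± 0.33 and −0.16 ± 0.31 did not pass (adjusted p = 0.141, 0.114 and 0.778). When the replicate number was a block, RXRA was lower after BRG1 knockdown (−0.74, adjusted p = 0.00185), and within each set of libraries it was higher after BRM knockdown (0.81 and 1.001 by set, adjusted p = 0.00775 and 0.0179, with 1 BRM library in the latter). Of 8 tested retinoic acid targets, 3 rose and 3 fell after BRG1 knockdown, 1 rose and 3 fell after BRM knockdown, and 3 fell in the double (medians 0.98, −1.36 and 0.60, where the median lies above 0 although no gene was called higher). The replicate block gave 2 that rose in the double. The transglutaminase TGM2 rose by 3.03 ± 0.35 after BRG1 knockdown and fell by 2.13 ± 0.38 after BRM knockdown, and STRA6, a retinol uptake receptor, changed by −2.29 ± 0.42 and −2.43 ± 0.43 after BRG1 and double knockdown.

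The thyroid hormone receptors bind T3 and act on metabolic genes. THRA (GRCh38 chromosome 17, 40058290 to 40093867, plus strand) held 25.1, 24.3, 43.5 and 39.7 CPM with NS, 13.3, 14.4, 16.7 and 19.9 after BRG1 knockdown, 31.8, 45.95 and 53.9 after BRM knockdown and 16.1, 15.9, 19.2 and 25.1 in the double. BRG1 libraries were all below NS, and double library 4 lay within the NS range. THRA fell by 1.04 ± 0.24 after BRG1 knockdown (adjusted p = 0.00618, −0.83 and −1.23 by set) and by 0.80 ± 0.24 in the double (adjusted p = 0.028, −0.63 and −0.96 by set), the latter lost without NS library 3 or 4 or double library 1 or 2 (0.0944, 0.0788, 0.0618 and 0.0595). THRB (GRCh38 chromosome 3, 24117153 to 24495756, minus strand), the main T3 receptor of liver, held 24.1, 22.3, 24.3 and 22.5 CPM with NS, 13.1, 15.3, 15.4 and 16.95 after BRG1 knockdown, 46.3, 37.9 and 31.5 after BRM knockdown and 24.2, 23.3, 18.8 and 23.3 in the double. The NS libraries were close together, the BRG1 libraries all below and the BRM libraries all above them. THRB fell by 0.62 ± 0.15 after BRG1 knockdown (adjusted p = 0.00753, −0.72 and −0.57 by set) and rose by 0.73 ± 0.16 after BRM knockdown (adjusted p = 0.00736, 0.85 and 0.35 by set). With only the 2 groups in the fit, the BRM call was lost (adjusted p = 0.0638).

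Of the steroid receptors and their relatives, 2 of 6 were tested and neither was called against NS. The glucocorticoid receptor NR3C1 held 65.4, 60.4, 32.2 and 34.02 CPM with NS, 55.8, 64.6, 37.9 and 46.5 after BRG1 knockdown, 102, 89.9 and 54.04 after BRM knockdown and 83.8, 82.8, 67.6 and 69.97 in the double, where all 4 libraries were above every NS library. Its differences from NS of 0.09 ± 0.26, 0.77 ± 0.28 and 0.66 ± 0.26 did not pass (adjusted p = 0.852, 0.0821 and 0.0865), but with the replicate block it was higher in the double knockdown (0.73, adjusted p = 0.00115). ESRRA, an orphan receptor of mitochondrial genes that shares 284 exonic bases with TRMT112, had differences of −0.08 ± 0.23, −0.39 ± 0.25 and −0.05 ± 0.23. Of 13 tested glucocorticoid receptor targets, 4 rose and 2 fell after BRG1 knockdown, 3 rose and 2 fell after BRM knockdown, and 4 rose and 2 fell in the double (medians 0.39, −0.09 and 0.41). ANGPTL4, given above with the PPAR targets, is among the genes that rose in each of these comparisons. The feedback inhibitor ERRFI1 rose by 1.59 ± 0.22 and 1.64 ± 0.22 after BRG1 and double knockdown, the phosphatase DUSP1 by 1.67 ± 0.30, 1.21 ± 0.32 and 1.86 ± 0.31 after BRG1, BRM and double knockdown, and the kinase SGK1 fell by 1.73 ± 0.29 after BRM knockdown. These genes also answer to other signals.

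The NR4A receptors are immediate early genes, induced rapidly by growth and stress signals, and act without a known classical ligand. NR4A1 (GRCh38 chromosome 12, 52022832 to 52059507, plus strand) held 5.05, 5.13, 16.6 and 22.4 CPM with NS, 8.13, 7.7, 17.7 and 18.2 after BRG1 knockdown, 2.26, 1.4 and 4.24 after BRM knockdown and 5.79, 5.67, 9.13 and 7.04 in the double. The BRM libraries were all below the NS libraries, and in NS and BRG1 the high-numbered libraries held more than the low-numbered. NR4A1 fell by 2.21 ± 0.58 after BRM knockdown (adjusted p = 0.0201, −1.51 and −2.29 by set), a call lost without NS library 4 or BRM library 1 or 2 (0.0598, 0.058 and 0.105), with limma voom (0.0561) and with 2 groups in the fit (0.0819). After BRG1 knockdown its difference from NS was 0.07 ± 0.48 (adjusted p = 0.939).

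NR4A2 (GRCh38 chromosome 2, 156324432 to 156342348, minus strand) was scarce with NS, at 0.534, 0.801, 0.0922 and 0.186 CPM, and held 2.84, 3.77, 1.39 and 1.18 CPM after BRG1 knockdown, all above NS. It was at 0.0806, 0.2 and 0 CPM in the BRM libraries and 0.711, 0.607, 0.773 and 0.229 CPM in the double libraries. NR4A2 rose by 2.49 ± 0.67 after BRG1 knockdown (adjusted p = 0.0144, 2.33 and 2.997 by set), a call lost without BRG1 library 2 (0.0562). NR4A3 (GRCh38 chromosome 9, 99821855 to 99866891, plus strand) held 0.291, 0.4, 0 and 0.139 CPM with NS, 0.552, 0.724, 0.218 and 0.295 after BRG1 knockdown, 0.242, 0.2 and 0.0461 after BRM knockdown and 1.203, 0.877, 0.948 and 0.744 in the double, again with the double libraries all above NS. It rose by 2.12 ± 0.62 in the double knockdown (adjusted p = 0.0243, 1.61 and 3.12 by set), lost without NS library 4 or double library 1 or 3 (0.0679, 0.0668 and 0.056). Each of the 3 NR4A genes was thus called in a different comparison with NS, and whether the genes differ in response was not tested. Among differences that were not called, NR4A2 stood at −2.04 ± 0.91 after BRM knockdown and 0.53 ± 0.68 in the double. NR4A3 stood at 1.05 ± 0.63 after BRG1 knockdown and −0.44 ± 0.77 after BRM knockdown, and NR4A1 at −0.83 ± 0.49 in the double.

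Of 17 other immediate early genes tested, 12 rose and none fell after BRG1 knockdown (median 1.49). After BRM knockdown 5 rose and 3 fell (median −0.22), and in the double 10 rose and none fell (median 1.18). Over all tested genes, 12.5, 7.66 and 11.8% were higher in these comparisons and 9.97, 6.26 and 9.9% lower. The AP-1 subunit FOSL1 rose by 2.62 ± 0.19 after BRG1 knockdown and fell by 1.27 ± 0.20 after BRM knockdown, and EGR1 fell by 2.90 ± 0.33 after BRM knockdown. In the double knockdown KLF2 rose by 4.73 ± 0.32 and JUNB by 2.63 ± 0.24.

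Among the COUP-TF and other orphan receptors, NR2F1 (GRCh38 chromosome 5, 93583224 to 93594615, plus strand) was lower in every knockdown. It encodes COUP-TFI, a receptor that binds the same hexamers as RXR heterodimers and can repress them. NR2F1 held 21.4, 24.99, 26.6 and 27.5 CPM with NS, 6.75, 8.37, 10.96 and 9.93 after BRG1 knockdown, 13.9, 11.1 and 14.9 after BRM knockdown and 9.13, 9.58, 5.65 and 6.81 in the double. No knockdown library reached the lowest NS library. NR2F1 fell by 1.48 ± 0.21 after BRG1 knockdown (adjusted p = 0.000166, −1.62 and −1.41 by set), by 0.92 ± 0.22 after BRM knockdown (adjusted p = 0.0135, −0.90 and −0.95 by set) and by 1.69 ± 0.21 in the double (adjusted p = 6.34e-05, −1.31 and −2.17 by set). The BRM call was lost without BRM library 2 (adjusted p = 0.0665). Its paralog NR2F2 (COUP-TFII) was not called, with differences of −0.34 ± 0.26, −0.15 ± 0.28 and −0.53 ± 0.26 (adjusted p = 0.395, 0.789 and 0.167). With the replicate block NR2F2 was lower in the double knockdown (−0.48, adjusted p = 0.0222).

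NR2F6, the most abundant COUP-TF member per length, held 104, 107, 137 and 114 CPM with NS, 53.1, 51.96, 105 and 98.4 after BRG1 knockdown, 140.2, 186 and 325 after BRM knockdown and 115, 108, 135 and 177 in the double. The BRM libraries were all above NS, yet the difference of 0.91 ± 0.31 did not pass (adjusted p = 0.0647). Within each set it did (0.63 and 1.29 by set, adjusted p = 0.0161 and 0.00387, with 1 BRM library in the latter), and after BRG1 knockdown it was −0.58 ± 0.29 (adjusted p = 0.172, and −0.66, adjusted p = 0.00782 with the replicate block). NR5A2 (GRCh38 chromosome 1, 200027602 to 200177424, plus strand), which encodes LRH-1, a competence factor for bile acid synthesis genes, was scarce: 0.631, 1.12, 1.11 and 1.12 CPM with NS, 0.316, 0.362, 0.305 and 0.59 after BRG1 knockdown, 0.403, 0.55 and 0.231 after BRM knockdown and 0.164, 0.27, 0.457 and 0.343 in the double. All knockdown libraries were below the lowest NS library. NR5A2 fell by 1.32 ± 0.41 after BRG1 knockdown (adjusted p = 0.0311, −1.32 and −1.35 by set) and by 1.63 ± 0.42 in the double (adjusted p = 0.0121, −1.97 and −1.49 by set). The BRG1 call was lost without NS library 2, 3 or 4 (0.0555, 0.0662 and 0.0662), without BRG1 library 1, 2 or 3 (0.0841, 0.0702 and 0.0755) and with no low-count filter (0.071).

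NR6A1 (GRCh38 chromosome 9, 124517275 to 124771310, minus strand), an orphan receptor known from germ cells and embryonic development, held 60.6, 62.8, 104 and 104 CPM with NS, 64.5, 72.7, 89.6 and 92.3 after BRG1 knockdown, 54.2, 51.3 and 59.5 after BRM knockdown and 53.3, 48.6, 38.6 and 65.2 in the double. The NS libraries split by number, the BRM libraries were all below them without a call, and double library 4 lay within the NS range. NR6A1 fell by 0.69 ± 0.21 in the double knockdown (adjusted p = 0.033, −0.27 and −1.06 by set), a call lost without NS library 3 or 4 (0.107 and 0.101), double library 1, 2 or 3 (0.0502, 0.059 and 0.0812), with 2 groups in the fit (0.0603) and with no low-count filter (0.0526). The testicular receptors NR2C1 and NR2C2 were not called, with differences between −0.23 and 0.32. NR2C2 shares 1197 exonic bases with MRPS25 on the opposite strand.

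**Figure D4:**
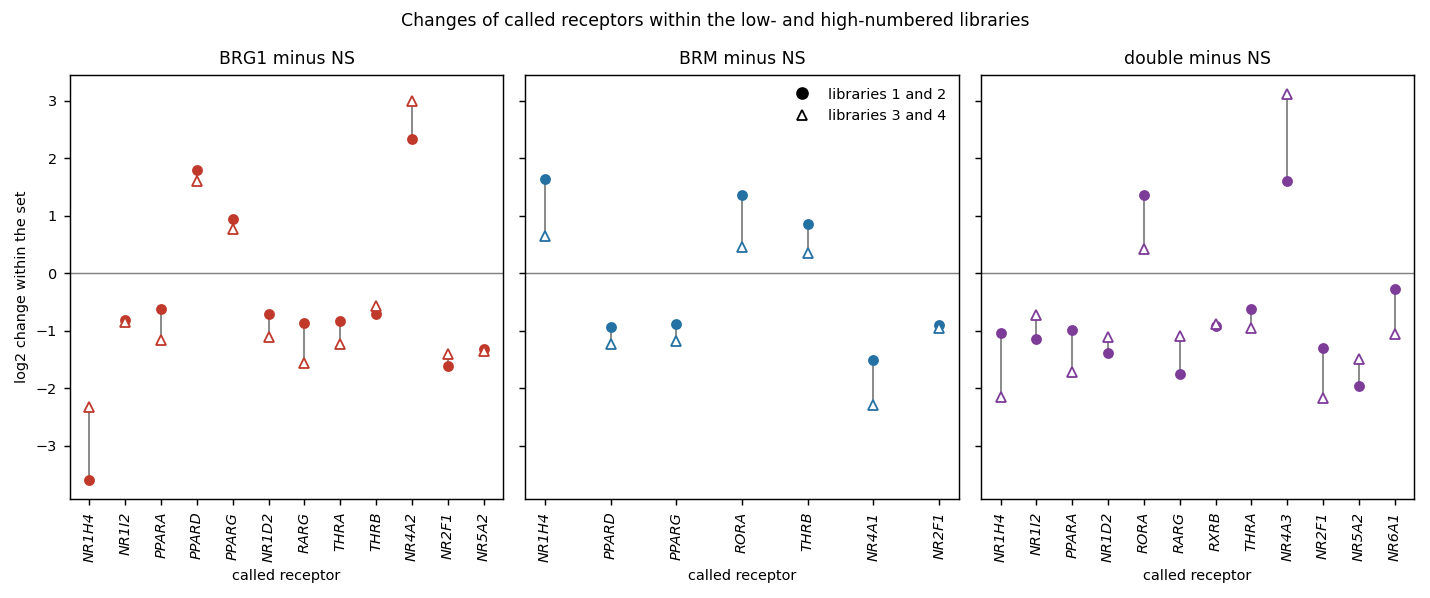
Log2 change of each receptor called against NS, computed within libraries 1 and 2 (filled circles) and within libraries 3 and 4 (open triangles), in panels for the BRG1, BRM and double knockdowns. Every called change has the same sign in both sets, and the gap is wide for NR1H4 (−3.59 and −2.32 after BRG1 knockdown, 1.65 and 0.65 after BRM knockdown).

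Taken within a set alone, some calls did not pass. In libraries 1 and 2 these were RARG and NR5A2 after BRG1 knockdown (adjusted p = 0.0581 and 0.0801) and NR6A1 in the double (0.151). In libraries 3 and 4 they were NR5A2 after BRG1 knockdown (0.103), NR1H4, RORA and THRB after BRM knockdown (0.0882, 0.208 and 0.247, with 1 BRM library), and RORA and NR5A2 in the double (0.135 and 0.0648). The other calls against NS passed in both sets. Besides NR0B2, RXRA and NR2F6 after BRM knockdown, 3 differences that were not called over all libraries passed in both sets: NR1D1 after BRG1 knockdown (0.62 and 1.01 by set, adjusted p = 0.0222 and 0.00309), NR3C1 after BRM knockdown (0.61 and 0.62 by set, adjusted p = 0.0114 and 0.0407) and NR1H3 in the double (0.49 and 0.57 by set, adjusted p = 0.0291 and 0.0436).

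Of 12 tested coactivators, PPARGC1A (PGC-1α, a coactivator of PPARA and ESRRA) was the 1 called after BRG1 knockdown, at −1.78 ± 0.55 (adjusted p = 0.0311), NCOA7 the 1 called after BRM knockdown, at −0.99 ± 0.18 (adjusted p = 0.00221), and none in the double (with the replicate block 1 rose and 1 fell in each of the BRG1 and double comparisons). Of 8 tested corepressors, TBL1X, a subunit of the NCOR complex, changed by −1.15 ± 0.23 after BRG1 knockdown and −0.92 ± 0.23 in the double, and none was called after BRM knockdown. The block added 1 corepressor that rose in each of the BRG1 and double comparisons. Among 14 tested genes that make or clear ligands, 5 rose and 5 fell after BRG1 knockdown, 2 rose after BRM knockdown, and 1 rose and 3 fell in the double (2 and 5 with the replicate block). ALDH1A1, which makes retinoic acid, changed by −2.32 ± 0.23 and −1.495 ± 0.22 after BRG1 and double knockdown and rose by 1.42 ± 0.23 after BRM knockdown, while ALDH1A3 rose by 4.77 ± 0.93 after BRG1 knockdown from 0.0322 to 1.02 CPM. DIO1, which converts thyroxine to T3, fell by 2.09 ± 0.33 after BRG1 knockdown, and AKR1D1, an enzyme of bile acid synthesis, rose by 1.61 ± 0.43 after BRM knockdown and fell by 1.93 ± 0.42 in the double.

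**Figure D5:**
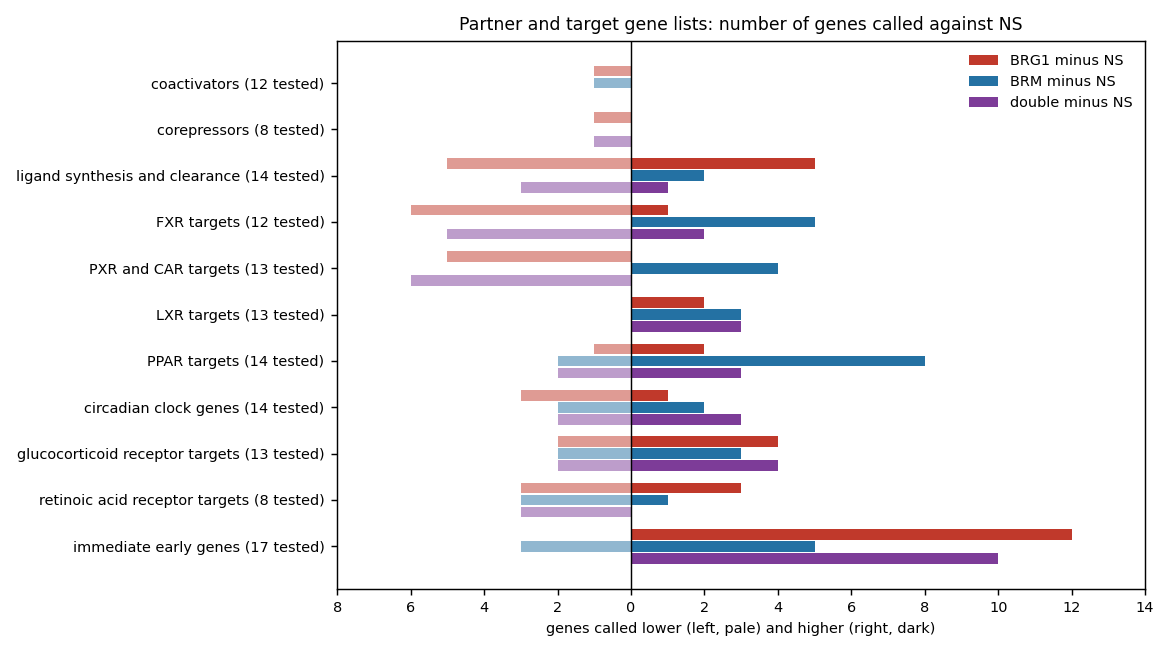
Number of genes called lower (pale, left) and higher (dark, right) against NS in 11 lists of receptor partners, ligand enzymes and targets, with a bar for each of the BRG1, BRM and double knockdowns. For the 13 tested PXR and CAR targets the bars are 5 lower, 4 higher and 6 lower, and for 17 immediate early genes the BRG1 bar reaches 12 higher.

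The knockdowns were also compared with each other. Between BRG1 and BRM knockdown 4 receptors were higher and 8 lower in BRG1, where 17.2% of all genes were higher and 16.7% lower. The higher ones were PPARD at 2.82 ± 0.23, PPARG at 1.88 ± 0.23, NR4A1 at 2.29 ± 0.58 and NR4A2 at 4.53 ± 0.88. The lower ones were NR1H4 at −4.04 ± 0.42 (−5.24 and −2.97 by set), NR1I2 at −1.29 ± 0.22, PPARA at −0.80 ± 0.20, RORA at −1.18 ± 0.29, RXRA at −1.52 ± 0.33, NR2F6 at −1.49 ± 0.31, THRA at −1.45 ± 0.26 and THRB at −1.35 ± 0.16. RXRA and NR2F6 were called here though neither was called against NS. Same-numbered BRG1 and BRM libraries also deviated together, and in the blocked fit 7 were higher (also NR2C1, NR4A3 and RXRB) and 10 lower (also NR2F1 and NR3C1), beside 25% and 24.4% of all genes. All BRG1 libraries were above all BRM libraries for 5 receptors and below them for 9, against 18.9 and 18.4% of all genes.

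In the double against the BRG1 knockdown, 4.1% of all genes were higher and 6.72% lower. The double also held more SMARCA4 (46.2 against 27.8 CPM on average). This comparison therefore does not separate added BRM depletion from weaker BRG1 depletion. RORA at 1.06 ± 0.27 and THRB at 0.56 ± 0.15 were higher in the double, and PPARD at −1.44 ± 0.20, PPARG at −0.71 ± 0.20 and RXRB at −0.82 ± 0.25 were lower. The 2 higher calls became 0 without BRG1 library 1 or double library 1 or 2, and 1 without BRG1 library 2 or double library 4. The 3 lower calls became 1, PPARD, without BRG1 library 1, 3 or 4 or double library 1 or 3. Against BRM knockdown, the double had 3 receptors higher and 8 lower, where 9.32% of all genes were higher and 9.74% lower. PPARD at 1.38 ± 0.22, PPARG at 1.17 ± 0.22 and NR4A3 at 2.56 ± 0.71 were higher. NR1H4 at −2.84 ± 0.40, NR1I2 at −1.42 ± 0.22, PPARA at −1.26 ± 0.20, THRA at −1.204 ± 0.26, THRB at −0.78 ± 0.16, NR1D2 at −0.98 ± 0.27, NR2F1 at −0.77 ± 0.22 and RXRA at −0.9997 ± 0.33 were lower. In either direction, 10.8% of all genes were called against BRG1 knockdown and 19.1% against BRM knockdown. The double libraries lay above all BRG1 libraries for 5 receptors and below them for 4 (7.77 and 11% of all genes), and above all BRM libraries for 5 and below them for 7 (12.9 and 14.3% of all genes).

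The interaction asks whether the double knockdown departs from the sum of the single changes on the log2 scale. None of the 31 receptors was called by edgeR, DESeq2 or limma voom, where 0.499% of all genes were called by edgeR. At an unadjusted p under 0.05 there were 2, NR0B2 at 1.54 ± 0.68 (adjusted p = 0.379) and NR2F1 at 0.71 ± 0.30 (adjusted p = 0.349). With a term for the numbering set, NR0B2 was called (adjusted p = 0.0333), and within libraries 1 and 2 NR0B2, NR1H4 and NR2F1 were (0.00294, 0.0432 and 0.0285). A value that did not pass does not show that changes add.

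The authors' deposited tables, which compare each knockdown with the control, held an adjusted p under 0.05 for 12, 8 and 13 of the 39 receptors after BRG1, BRM and double knockdown. All receptors called here were among them with the same sign. The authors' deposited table for BRM also listed NR2F6 (log2 fold change 0.89, adjusted p = 0.046), and the authors' deposited table for the double listed NR1H2 (0.9997, adjusted p = 0.0386). These tables come from the same libraries and are no independent check.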

How the data were processed

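The deposited matrix holds estimated counts per gene symbol as whole numbers for 15 libraries, not normalized. The submitters' processing notes name GRCh38, the pseudoaligner kallisto and DESeq2, and the sources used here state no version, annotation or strand setting. Kallisto divides reads shared by similar transcripts by estimation. Per the file headers, the authors' comparison tables hold, per gene, a mean normalized signal, the log2 fold change and its error, a test score, and raw and adjusted p-values.

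Genes passing filterByExpr (14621) were fitted with edgeR 4.0.16 in R 4.3.3 (TMM, group means of all 15 libraries, robust quasi-likelihood F test, two-sided, Benjamini-Hochberg adjustment, called under 0.05). The SE is the log2 change divided by the square root of F. Alternatives used DESeq2 1.42.0, limma 3.58.1 voom, other scalings, filters, terms and left-out libraries. The receptors, the lists of partners and targets and these tests were chosen with earlier results of these data known. Every receptor is accounted for, those called against NS with values per library, and from each other list at most the 3 called genes with the smallest adjusted p per knockdown are named. Gene positions and exonic lengths are from GENCODE v29, and promoter windows from RefSeq on GRCh38.p14.

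Pairing by number was accepted where, after subtracting group means, each same-numbered pair correlated above 0.1. That was so for BRG1 with NS (0.427 to 0.565), for double with NS (0.179 to 0.454), and for BRG1 with BRM (0.104 to 0.532). The difference between libraries 1 and 2 and libraries 3 and 4 enters these correlations. Libraries of unlike number were not compared between groups, so the rule cannot show that a number marks a pair. Within groups, counts of library pairs gave chi-square values per degree of freedom from 5.21 to 226, so none agreed within sampling noise. Pairs inside libraries 1 and 2 or inside libraries 3 and 4 gave 5.21 to 66.3, and pairs across them 98.9 to 226. These values do not tell separate cultures from repeated libraries of the same culture. Intervals and floors cover counting error only.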

Additional observations from a re-analysis of the deposited data

Results flagged for a closer look

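In 4 of 93 groups of 4 libraries tested, a library lay far from the others of its group, and chance alone gives about 5% of such groups. NR5A2 in NS library 1 was 0.631 CPM, below the 1.11 to 1.12 CPM of the other NS libraries. RARA in BRG1 library 3 was 44.9 CPM against 38.4 to 39.1. THRB in double library 3 was 18.8 CPM against 23.3 to 24.2, and NR1I3 in the same library 1.62 CPM against 0.674 to 0.82.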

How the results depend on the processing

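No called receptor changed sign against NS in any alternative run. Counts of called receptors moved by more than 1.5 times as follows. With the replicate block, receptors higher were 6 after BRG1 knockdown and 6 in the double knockdown, 6 in double against BRM and 7 in BRG1 against BRM, and in double against BRG1 6 were higher and 6 lower. The numbers did not meet the pairing rule for BRM and NS, BRM and double, and BRG1 and double. Their correlations were 0.0733 to 0.527, 0.0133 to 0.589 and 0.0578 to 0.659. BRM against NS had 10 higher and 7 lower under the block, and what a shared number means is not known for any pair of groups. The block lost no call against NS, and it called 19.5% of all genes higher after BRG1 knockdown, against 12.5% in the main fit. No share of all genes called is given for the runs below or for the other block values without a share above. Whether receptor counts moved more than counts over all genes was not tested. With the numbering set as a term, receptors higher were 6 for BRG1, 11 for BRM and 6 for double against NS, 7 for double against BRG1, 6 for double against BRM and 7 for BRG1 against BRM, receptors lower were 9 for BRM against NS and 6 for double against BRG1, and the interaction had 1. Within libraries 1 and 2, BRM against NS had 7 higher and 7 lower, double against BRG1 7 higher, double against BRM 6 higher, BRG1 against BRM 7 higher and the interaction 3. Within libraries 3 and 4, receptors higher were 5, 6 and 5 for BRG1, BRM and double against NS and 5 for double against BRM, and 6 were lower in double against BRG1. DESeq2 gave 5 higher for BRM against NS. With 2 groups in the fit there was 1 higher for BRM against NS and 1 for double against BRG1, without a low-count filter 1 higher and 1 lower for double against BRG1, and with a filter at 1 CPM in 3 libraries 1 higher for double against NS, since NR4A3 was then not tested. The other causes were not tested. Scaling by RLE or upper quartile moved no count that far, and the medians of all genes stayed between −0.04 and 0.03. Leaving out 1 library at a time gave, higher then lower, 2 to 4 and 6 to 9 for BRG1, 1 to 4 and 2 to 5 for BRM and 0 to 3 and 7 to 10 for double against NS, 0 to 3 and 1 to 4 for double against BRG1, 2 to 4 and 6 to 8 for double against BRM, 4 to 5 and 8 to 10 for BRG1 against BRM, and 0 for the interaction. Receptors higher in BRM fell to 1 without NS library 2, lower in BRM to 2 without BRM library 2, and higher in the double to 0 without double library 1 and 1 without NS library 2 or 4 or double library 3. Within libraries 3 and 4 the single BRM library is assumed to vary like the other groups, and genes under about 1 CPM such as NR4A2, NR4A3 and NR5A2 rest on few counts.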
